A study of Mus musculus with 13 samples.

Results

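The genes described here encode the enzymes that build fatty acids from acetyl-CoA, desaturate and lengthen them, take them up, activate them and join them to glycerol. A list of 36 gene symbols defined them. In the array's gene annotation 34 of the 36 had a probe set of their own, among 19934 such genes in all. Acsl1 was listed with no probe set and Acsl3 only with a probe set that it shares with another gene, so neither was measured here. Of the 34, 32 passed the filter on low intensity (log2 intensity above 5 on at least 3 arrays) and were tested with 15875 genes. Elovl2 and Elovl3, elongases of very long polyunsaturated and saturated chains, did not pass. Their log2 intensities lay between 3.69 and 4.35 and between 4.06 and 4.67 over the 13 arrays.

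Fatty acid synthesis starts in the cytosol, where ATP citrate lyase makes acetyl-CoA, acetyl-CoA carboxylase turns it into malonyl-CoA and fatty acid synthase builds palmitate. In the endoplasmic reticulum, elongases add carbons in pairs and desaturases add double bonds, and acyl-CoA synthetases activate each acid before it is esterified or oxidized. In stratified squamous epithelium such as that of the esophagus and the forestomach, the keratinized front chamber of the rodent stomach, very long acyl chains are used for the ceramides and other lipids of the surface barrier.

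The 13 arrays measured total RNA of mouse epithelium, separated after dispase treatment, on a mixed C57Bl/6 and 129 background. Every animal carried L2-Cre, a Cre transgene under a viral promoter that is active in the squamous epithelium of the mouth, esophagus and forestomach. The control animals were p120 +/+, and both control tissues came from the same 3 animals (214, 216 and 217). The other animals were p120 flox/flox, with floxed alleles of Ctnnd1, which encodes p120-catenin, the catenin that holds E-cadherin at cell junctions. They gave 4 esophagus samples (animals 193, 307, 313 and 335) and 3 forestomach samples (animals 412, 426 and 510). All 3 of these forestomach samples were labelled as masses, and there was no flox/flox forestomach without a mass, so the effects of genotype and of mass cannot be told apart. The labels used here give no ages.

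Ctnnd1 itself had log2 intensities of 10.21 to 10.50 in the control and 9.95 to 10.13 in the flox/flox esophagus, where the difference was -0.29 (SE 0.11, limma adjusted p = 0.637). In the control forestomach it lay between 10.14 and 10.40, and in the masses between 9.51 and 9.91, and it fell by 0.56 (SE 0.12, adjusted p = 0.0145). Which exons are deleted and where the probes lie were not given in the sources used here. Squamous epithelium markers (10 genes) had a mean log2 level of 10.84 to 11.45 on all 13 arrays, but this mean hides single genes that differed. In the masses 5 were above and 5 below control forestomach, from -0.70 to 1.37, with 1 called in each direction. Between the control tissues their differences ran from -3.19 to 2.49, again with 1 called in each direction. Markers of other tissues differed between arrays, some of them on single arrays. Those of macrophages and endothelial cells, given below, had higher means in all 3 masses than in control forestomach. The 10 genes of glandular stomach averaged 11.53 in mass 426 and 5.27 to 5.82 on the other 12 arrays. The 7 fibroblast and matrix genes averaged 8.91, 9.27 and 7.01 in masses 412, 426 and 510, against 7.59, 6.33 and 6.27 in control forestomachs 214, 216 and 217. They were also high in esophagus 214, 307 and 335 (10.92, 9.43 and 9.98, with 6.07 to 6.38 in the other 4), as were the 10 skeletal muscle genes (8.21, 8.0 and 9.52 against 5.68 to 5.94). Adipocyte markers (9 genes with a probe set) averaged 6.04 to 6.17 in control forestomach and 5.37 to 5.45 in control esophagus. They averaged 5.40 to 6.11 in the flox/flox esophagus and 5.75 to 6.15 in the masses. All 7 tested were higher in control forestomach than in control esophagus, with a median difference of 0.28 and 1 called. In the masses 4 were above and 3 below the control forestomach. Adipoq and Lep of this list were below the filter. Fabp4 of the same list, a fatty acid binding protein also made by other cells, stood apart, at 9.76 to 9.89 in control forestomach, 5.48 to 5.90 in control esophagus (difference 4.15, SE 0.56, limma adjusted p = 9.76e-04) and 7.84 to 8.62 in the masses (difference -1.70, SE 0.56, 0.0749). The part of such cells in the members' differences was not tested. In such samples fewer cells of a type and less RNA per cell cannot be told apart.

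**Figure D1:**
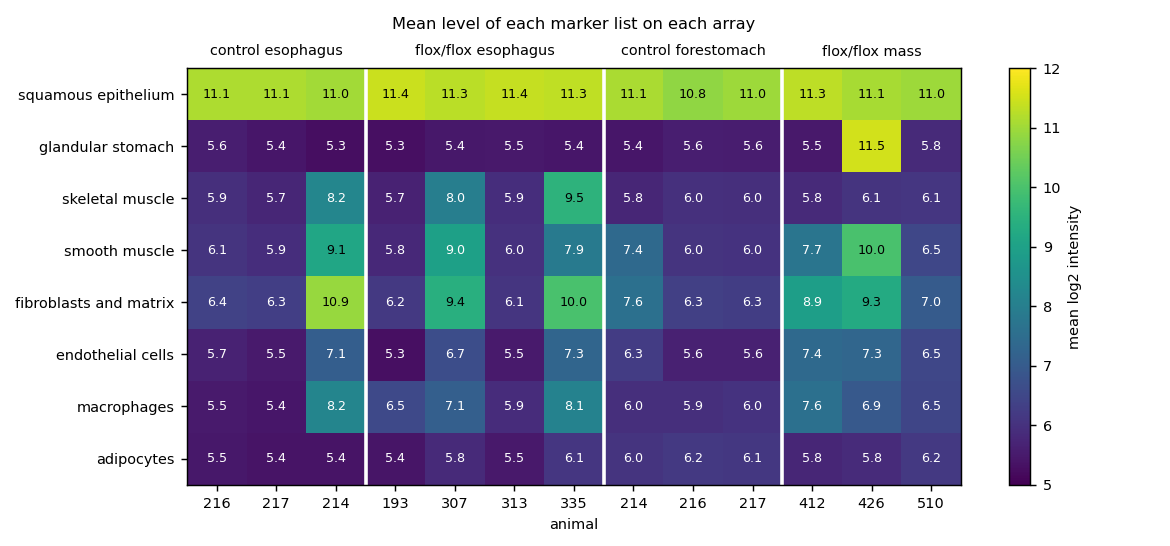
Mean log2 intensity of the marker lists (rows), without those of leukocytes and proliferation, on each of the 13 arrays (columns, named by group and animal). Glandular stomach genes stand out in mass 426, at 11.53, and fibroblast and skeletal muscle genes in esophagus 214, 307 and 335.

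The masses differed from control forestomach in many of these genes, and in both directions. Of the 32 members, 16 were called at a limma adjusted p under 0.05. The 4 that rose (12.5%) were the desaturases Fads1 and Fads2, the elongase Elovl7 and the acyltransferase Agpat2, where 2.31% of all genes tested rose. The 12 that fell (37.5%) were Acaca, Fads6, Elovl1, Elovl4, Elovl6, Hsd17b12, Acsl5, Slc27a1, Slc27a4, Gpam, Agpat3 and Dgat2, where 8.4% of all genes tested fell. The median log2 difference of the members was -0.26, against 0.01 over all genes tested. The members were chosen with earlier results of these data known, so these shares describe them and are no independent test. Quantile normalization of the arrays moved the split over all genes from 366 higher and 1334 lower to 515 higher and 1104 lower, and that of the members to 5 higher and 11 lower.

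The number of calls depended on which arrays were included. Without control forestomach 214, 216 or 217 there were 8, 9 and 8 calls, all among the 16, and without mass 412 or mass 426 there were 11. Without mass 510 there were 18, of which 15 were among the 16, and Fads3 (adjusted p = 0.0217), Me1 (0.0343) and Tecr (0.0193) were added. Me1 was also added with the mean of the probe sets of a gene, Fads3 with array weights and Dgat1 with quantile normalization. Fads2, Fads6, Elovl7, Slc27a1, Gpam and Agpat2 were called under each of the 25 alternatives that were run. Those include the removal of masses 412 and 426 together, added after the data were seen, which left 7 calls, these 6 and Acsl4. That fit has mass 510 as its only mass and assumes that it varies like the other groups, so it holds no replicate check of the masses. When the fit held the 6 forestomach arrays alone there were 8 calls, and Acaca, Acsl5, Agpat3, Dgat2, Elovl1, Elovl4, Fads1 and Slc27a4 had adjusted p of 0.0648 to 0.23.

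Control forestomach was also compared with control esophagus, to give the levels of the members in both normal tissues. Here 7 members (21.875%) were higher in the forestomach, where 3.51% of all genes tested were, and 4 (12.5%) were lower, where 3.16% were. Since the masses and the control esophagus are both set against the same 3 control forestomach arrays, an error in those arrays enters both differences. The values of each comparison are therefore given side by side, and no agreement between them is counted. The tissues are paired by animal. The paired fit has the animal as a replicate block and uses the 6 control arrays alone, and it called 12 members higher and 4 lower. It added Dgat2, Elovl6, Fads6, Fasn and Scd1 (difference 1.35), at adjusted p of 0.0413, 0.0034, 0.0264, 0.0468 and 0.036. The same 6 arrays without the block gave 15 calls, adding Dgat2, Elovl6, Fads6 and Slc27a4 at 0.0307, 5.91e-04, 0.00881 and 0.0492, so the gain cannot be put down to the pairing alone. Without esophagus 214, 307 and 335 together, Acly, Elovl1, Elovl4, Elovl5 and Hsd17b12 were not called (0.0753, 0.123, 0.109, 0.0815 and 0.0546).

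**Figure D2:**
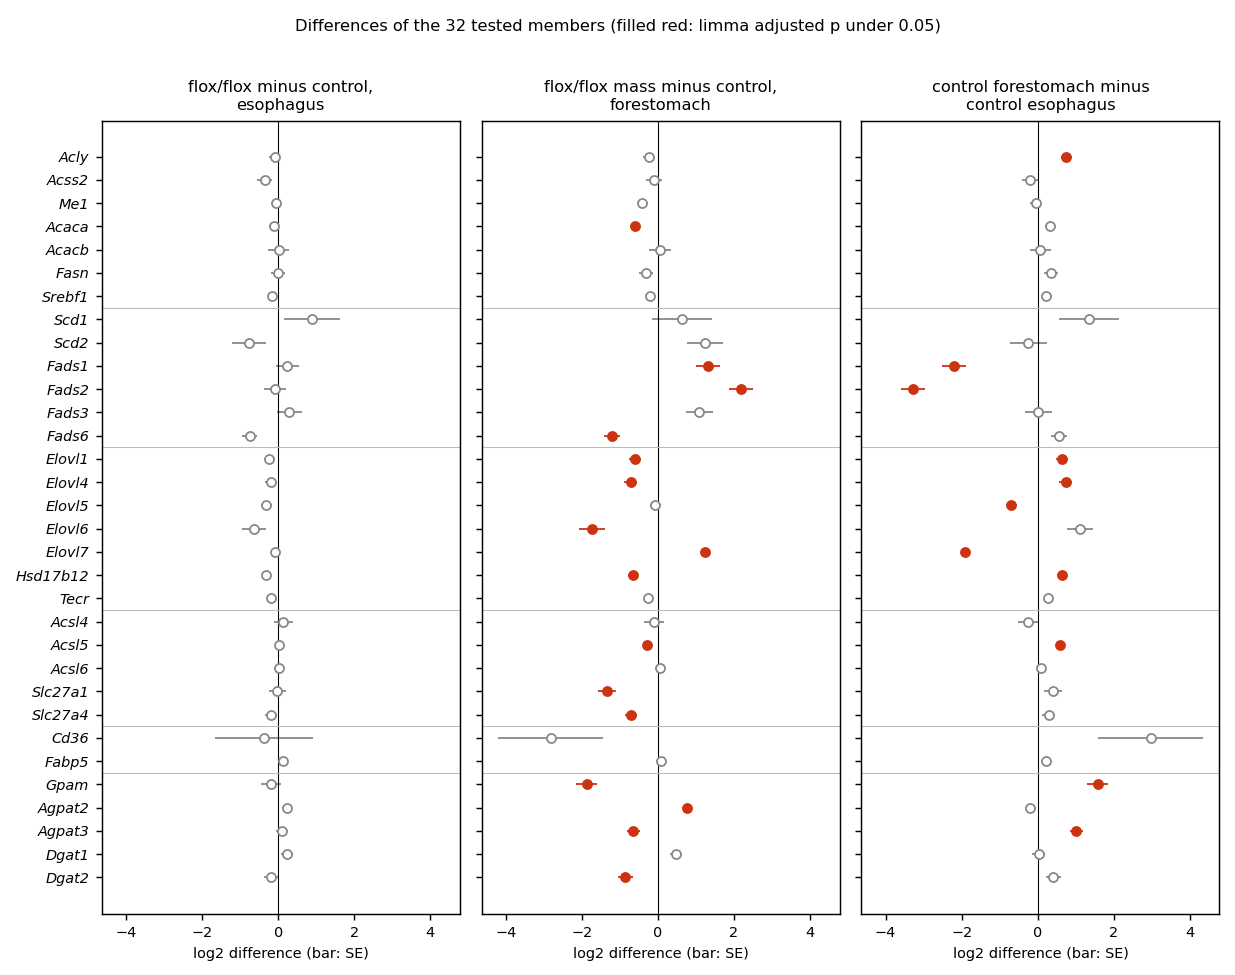
Log2 difference of each of the 32 tested members (points, with bars of 1 SE) in 3 comparisons, one per panel on a shared axis, grouped by role. Filled points had a limma adjusted p under 0.05, which were 16 in the masses, 11 between the control tissues and 0 in the esophagus.

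Promoter sequence is shown for the 4 members with the smallest adjusted p in the masses, of which Elovl7, Fads2 and Agpat2 rose and Gpam fell. Each is the 250 bases before an annotated start, 5′ to 3′ on the gene's strand, from RefSeq on GRCm38.p6. Capitals mark a CCAAT box, which is read by the factor NF-Y, on either strand.
Elovl7, chr13:108214154-108214403, plus strand: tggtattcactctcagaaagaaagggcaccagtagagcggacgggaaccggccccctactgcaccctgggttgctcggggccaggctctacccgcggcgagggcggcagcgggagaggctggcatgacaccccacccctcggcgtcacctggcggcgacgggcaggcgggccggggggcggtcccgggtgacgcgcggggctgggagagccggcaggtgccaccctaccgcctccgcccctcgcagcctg
Fads2, chr19:10101504-10101753, minus strand: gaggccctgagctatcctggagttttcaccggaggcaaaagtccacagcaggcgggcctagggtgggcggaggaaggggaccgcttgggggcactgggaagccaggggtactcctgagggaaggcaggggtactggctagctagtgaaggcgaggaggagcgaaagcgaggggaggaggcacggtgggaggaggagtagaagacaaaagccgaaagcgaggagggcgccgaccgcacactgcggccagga
Agpat2, chr2:26604418-26604667, minus strand: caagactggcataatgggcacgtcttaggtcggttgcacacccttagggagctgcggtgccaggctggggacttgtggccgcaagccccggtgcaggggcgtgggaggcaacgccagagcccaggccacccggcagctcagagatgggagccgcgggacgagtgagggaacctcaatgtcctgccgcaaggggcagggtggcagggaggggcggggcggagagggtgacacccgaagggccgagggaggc
Gpam, chr19:55127239-55127488, minus strand: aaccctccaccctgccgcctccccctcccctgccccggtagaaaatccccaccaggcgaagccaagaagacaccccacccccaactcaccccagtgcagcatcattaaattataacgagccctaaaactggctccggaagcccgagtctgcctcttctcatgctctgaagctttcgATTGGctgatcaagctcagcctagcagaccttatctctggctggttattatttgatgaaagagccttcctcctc

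The letters of 3 motifs were searched on both strands in the RefSeq windows, which were at hand for 29 of the 36 members. The sterol regulatory element letters TCACNCCAC, a form of the site read by SREBP factors, were in 1.05% of all 32851 windows and in 1 of 40 member windows, that of Acsl1. The E-box CACGTG was in 6.02% of all windows and in those of Elovl5 and Slc27a1. CCAAT was in 33.85% of all windows and in 20 of 40 member windows, from 17 genes. Of the 4 promoters printed, that of Gpam held CCAAT 74 bases before the start, and those of Elovl7, Fads2 and Agpat2 held none of the 3 in this window. The window of another annotated start of Gpam (chr19:55099478-55099727), not printed, held none of the 3 either.

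Of the 7 genes of carbon supply and of the committed steps, 1 fell in the masses and 6 were not called, with a median difference of -0.24. That share is near the 8.4% of all genes that fell. Acaca, acetyl-CoA carboxylase 1, which makes the malonyl-CoA used for synthesis, read 10.12, 10.01 and 10.12 in control forestomachs 214, 216 and 217 and 9.54, 9.29 and 9.63 in masses 412, 426 and 510 (log2 intensity). All masses were below all controls, and Acaca fell by 0.59 (SE 0.13, n = 3 and 3, 1.51-fold lower, limma adjusted p = 0.0162). Its call was lost without control forestomach 214 (adjusted p = 0.0631) or 217 (0.0618).

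Fasn, which encodes fatty acid synthase, read 10.66, 10.38 and 10.57 in the controls and 10.39, 10.06 and 10.19 in the masses. The groups overlapped, and the difference of -0.32 (SE 0.19, adjusted p = 0.323) was not called. Srebf1, the transcription factor that drives lipogenic genes, read 8.95, 8.85 and 8.92 in the controls and 8.82, 8.72 and 8.51 in the masses. Here the groups did not overlap, but the difference of -0.22 (SE 0.12, adjusted p = 0.292) was not called. Me1, the malic enzyme that supplies NADPH, did not overlap either, at 12.15 to 12.23 in the controls and 11.40, 11.95 and 12.001 in the masses, with a difference of -0.42 (SE 0.14, adjusted p = 0.087). Acly, ATP citrate lyase, Acss2, which makes acetyl-CoA from acetate, and Acacb, the carboxylase at mitochondria, overlapped between the groups, with differences of -0.24, -0.10 and 0.05.

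Between the control tissues, Acly was the called member of this role. It read 10.13, 10.23 and 10.18 in control esophagus 216, 217 and 214 and 10.87, 10.87 and 11.04 in control forestomach 214, 216 and 217. All forestomach values were above all esophagus values, and Acly was higher there by 0.75 (SE 0.15, 1.68-fold, adjusted p = 0.0101, or 0.0513 without control forestomach 217). Fasn, at 10.08, 10.23 and 10.28 in the control esophagus, was 0.34 higher in the forestomach (SE 0.19, adjusted p = 0.328, or 0.0468 in the paired fit). Acaca (9.86, 9.89 and 9.56), 0.32 higher, and Srebf1 (8.69, 8.66 and 8.75), 0.21 higher, had adjusted p of 0.194 and 0.361.

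The desaturases held the largest differences that were called. Fads2, the delta-6 desaturase that opens the synthesis of long polyunsaturated fatty acids, read 9.39, 9.29 and 9.13 in the control esophagus and 5.84, 5.96 and 6.14 in the control forestomach. In masses 412, 426 and 510 it read 9.08, 8.04 and 7.36. The control forestomach was below every other sample, mass 412 was the highest mass and mass 510 the lowest, and mass 412 alone reached the range of the 7 esophagus samples, 9.03 to 9.39. Fads2 rose in the masses by 2.18 (SE 0.31, 4.53-fold, limma adjusted p = 0.00222). Control forestomach differed from control esophagus by -3.29 on the log2 scale (SE 0.31, 9.77-fold lower, adjusted p = 9.75e-05). With each array left out in turn, its difference in the masses ranged from 1.72 to 2.58.

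Fads1, the delta-5 desaturase of the same pathway, is a neighbour of Fads2 and Fads3 on chromosome 19. It read 8.29, 8.33 and 8.59 in the control esophagus, 6.17, 6.13 and 6.28 in the control forestomach and 8.02, 7.98 and 6.55 in the masses. Masses 412 and 426 were far above the controls and mass 510 was close to them. The rise was 1.32 (SE 0.32, 2.50-fold, adjusted p = 0.0228), and the difference between the control tissues was -2.21 (SE 0.32, 4.63-fold lower, adjusted p = 0.00167). The rise was no longer called without any 1 of the control forestomachs 214, 216 and 217 (adjusted p = 0.0764, 0.0756 and 0.0634), mass 412 (0.077) or mass 426 (0.0611).

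Fads6, a fatty acid desaturase family member whose substrate is not well known, went the other way. It read 9.0, 8.82 and 8.94 in the control forestomach and 7.20, 7.77 and 8.15 in the masses, with no overlap. It fell by 1.21 (SE 0.21, 2.32-fold lower, adjusted p = 0.00545), and the difference ranged from -1.44 to -0.96 with each array left out in turn. Between the control tissues it was 0.55 higher in the forestomach (SE 0.21, adjusted p = 0.16, or 0.0264 in the paired fit).

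Of the desaturases not called, Scd2 and Fads3 had masses above all controls. No share over all genes is given for groups without overlap in the masses or between the control tissues. For these and all other members named in those comparisons, such a lack of overlap is thus a description only. Scd2, a delta-9 desaturase, read 10.74, 9.82 and 10.31 in the controls and 12.10, 10.95 and 11.53 in the masses (difference 1.24, SE 0.48, adjusted p = 0.126). Fads3, which acts on sphingoid bases, read 6.01, 6.36 and 5.97 in the controls and 6.87, 8.17 and 6.54 in the masses (difference 1.08, SE 0.35, adjusted p = 0.073, and 0.59 without mass 426). Scd1, the delta-9 desaturase that makes oleate and palmitoleate, read 8.86, 8.40 and 8.76 in the controls and 10.06, 8.63 and 9.19 in the masses. Its groups overlapped, and its difference of 0.62 had an SE of 0.79 (adjusted p = 0.693). In the esophagus Scd1 was the most uneven desaturase, at 6.48, 7.21 and 8.26 in control animals 216, 217 and 214 and 6.51, 8.50, 7.48 and 10.35 in samples 193, 307, 313 and 335 of the flox/flox group. The highest values of both groups were those of 214, 307 and 335, the arrays with high muscle and fibroblast markers, and the part of those cells in its level was not tested.

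**Figure D3:**
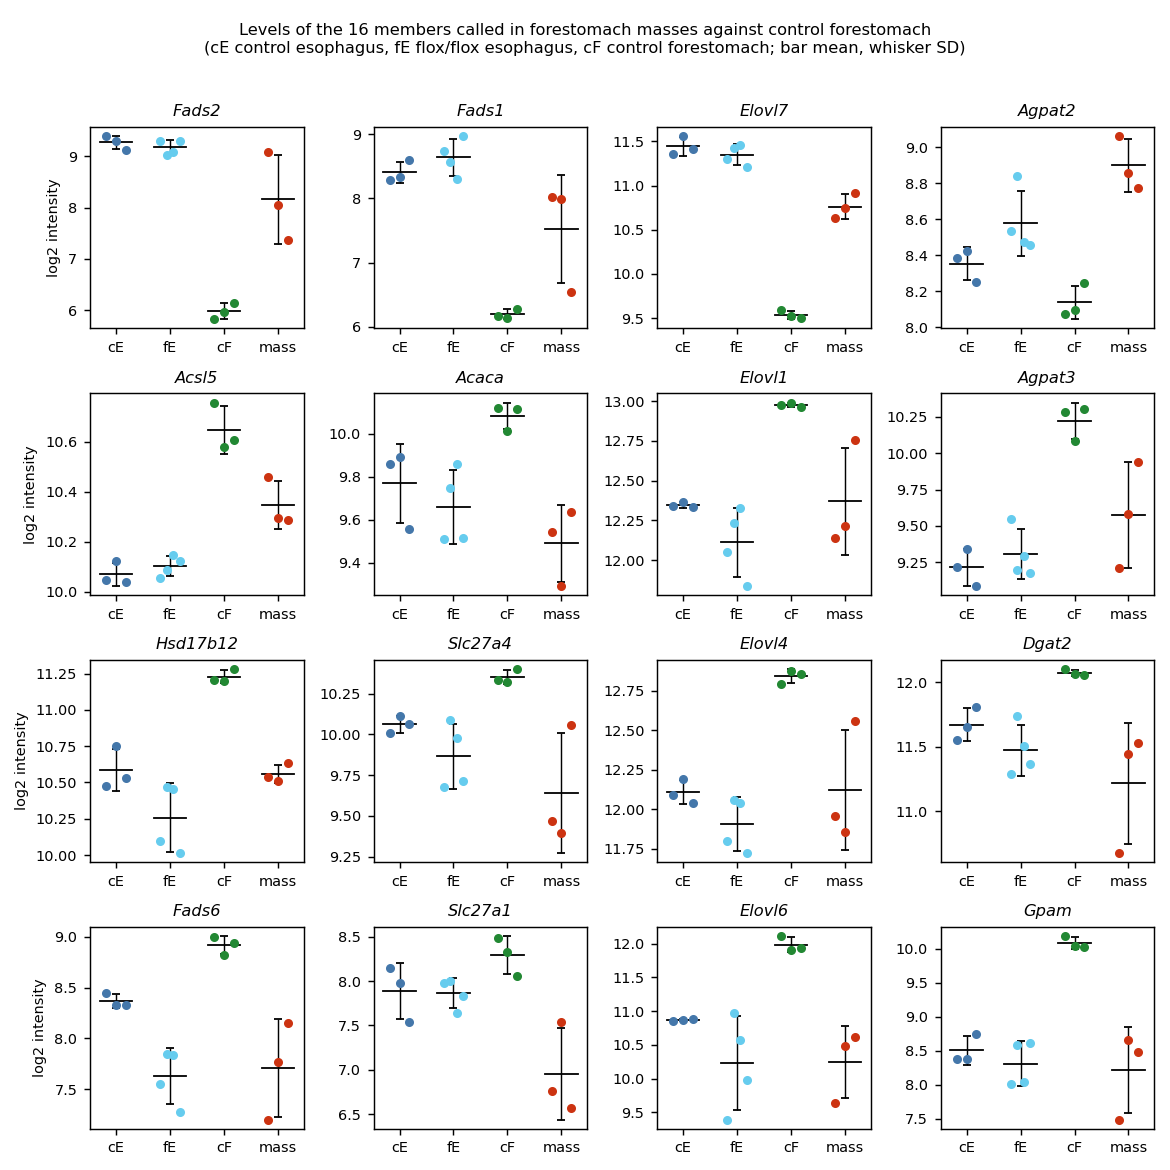
Log2 intensity of the 16 members called in the masses, on each array (points, coloured by group, with bar and whisker for the mean and SD of 3 or 4 arrays). Fads2 and Elovl7 lie low in control forestomach and higher in the 3 masses, and Gpam and Elovl6 the reverse.

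The elongation cycle had 7 tested members, of which 1 rose and 4 fell in the masses, where 2.31% of all genes tested rose and 8.4% fell. Elovl7, an elongase of long saturated and polyunsaturated acyl-CoAs, had the smallest adjusted p of all members. It read 11.36, 11.56 and 11.41 in the control esophagus, 9.59, 9.52 and 9.5 in the control forestomach and 10.63, 10.74 and 10.92 in the masses. The 3 groups did not overlap, and the masses lay between the control tissues. Elovl7 rose by 1.23 in the masses (SE 0.11, 2.34-fold, limma adjusted p = 2.63e-04), and control forestomach differed from control esophagus by -1.91 (SE 0.11, 3.75-fold lower, adjusted p = 1.34e-06). Left-out arrays moved the rise only between 1.15 and 1.29.

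Elovl6, the elongase that takes palmitate to stearate, read 12.11, 11.90 and 11.93 in the control forestomach and 9.63, 10.49 and 10.61 in the masses. All masses were below all controls, mass 412 the farthest, and Elovl6 fell by 1.74 (SE 0.35, 3.34-fold lower, adjusted p = 0.00956). With mass 510 as the only mass, its spread taken from the other groups, the difference was -1.37 (adjusted p = 0.092). In the control esophagus Elovl6 read 10.85, 10.86 and 10.89. The control forestomach was 1.12 above that (SE 0.35, adjusted p = 0.0818, or 0.0034 in the paired fit). This difference was called without flox/flox esophagus 193 (0.0352) or 307 (0.0491) or mass 412 (0.0474), which lie outside the comparison but enter the shared spread.

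Elovl1 and Elovl4, elongases of very long chains that serve barrier lipids, fell by less. Elovl4 read 12.79, 12.88 and 12.86 in the control forestomach and 11.96, 11.86 and 12.56 in the masses, and fell by 0.72 (SE 0.16, 1.65-fold lower, adjusted p = 0.0178). Elovl1 read 12.98, 12.99 and 12.96 in the controls and 12.14, 12.21 and 12.76 in the masses, and fell by 0.61 (SE 0.16, 1.52-fold lower, adjusted p = 0.0325). For both genes mass 510 was the closest to the controls, and no mass reached them. The fall of Elovl4 was not called without control forestomach 214, 216 or 217 (adjusted p = 0.0539, 0.0626 and 0.0618) or mass 412 (0.0583). That of Elovl1 was not called without control forestomach 214, 216 or 217 (0.0982, 0.0951 and 0.0901), mass 412 (0.0981) or mass 426 (0.0801).

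In the control esophagus Elovl4 read 12.09, 12.19 and 12.04 and Elovl1 12.34, 12.37 and 12.34. In the control forestomach Elovl4 was higher by 0.73 (SE 0.16, adjusted p = 0.0202) and Elovl1 by 0.63 (SE 0.16, adjusted p = 0.037). Both were above the esophagus on all 3 arrays. Without any 1 of the 6 control arrays neither was called: the adjusted p lay between 0.0523 (without control esophagus 217) and 0.0788 (without control forestomach 216) for Elovl4. For Elovl1 it lay between 0.098 (without control esophagus 216) and 0.12 (without control forestomach 216), and it was 0.0507 without flox/flox esophagus 193.

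Hsd17b12, the ketoacyl-CoA reductase of the cycle, read 11.21, 11.20 and 11.28 in the control forestomach and 10.54, 10.51 and 10.63 in the masses. The 3 masses were close to each other and below all controls, and Hsd17b12 fell by 0.67 (SE 0.13, 1.59-fold lower, adjusted p = 0.00928). In the control esophagus it read 10.47, 10.75 and 10.53, and the control forestomach was higher by 0.64 (SE 0.13, adjusted p = 0.0126). The latter call was lost without control esophagus 214 (0.0508) or 216 (0.058) and without control forestomach 217 (0.0576). Tecr, the enoyl reductase that ends the cycle, read 11.78 to 11.85 in the controls and 11.44 to 11.72 in the masses, without overlap, but was not called (difference -0.27, SE 0.10, adjusted p = 0.101).

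Elovl5, an elongase of polyunsaturated chains that acts after Fads2, differed between tissues but not detectably in the masses. It read 10.34, 10.45 and 10.27 in the control esophagus, 9.70, 9.61 and 9.67 in the control forestomach and 9.17, 9.89 and 9.71 in the masses. Control forestomach differed from control esophagus by -0.69 (SE 0.15, 1.62-fold lower, adjusted p = 0.0175). The masses lay on both sides of the control forestomach, with a difference of -0.07 (SE 0.15, adjusted p = 0.832). The call between the tissues was lost without control esophagus 216 (0.0558) or 217 (0.0781) and without control forestomach 214, 216 or 217 (0.0534, 0.075 and 0.0616).

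Of the 5 activation genes tested, 3 fell in the masses and none rose, where 8.4% of all genes tested fell and 2.31% rose. Slc27a1, a fatty acid transport protein with acyl-CoA synthetase activity, read 8.49, 8.33 and 8.06 in the control forestomach and 6.76, 7.54 and 6.57 in the masses, with no overlap. It fell by 1.33 (SE 0.24, 2.52-fold lower, limma adjusted p = 0.00562). In the control esophagus it read 8.15, 7.98 and 7.54, which overlapped the control forestomach (difference 0.40, SE 0.24, adjusted p = 0.361).

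Slc27a4, the transport protein of this family that is known for its need in the skin barrier, read 10.33, 10.32 and 10.40 in the control forestomach and 9.47, 9.39 and 10.06 in the masses. All masses were below all controls, and it fell by 0.71 (SE 0.17, 1.64-fold lower, adjusted p = 0.0192). That call was lost without control forestomach 214, 216 or 217 (0.062, 0.0565 and 0.0698), mass 412 (0.0621) or mass 426 (0.0502). In the control esophagus it read 10.01, 10.11 and 10.07, and the control forestomach was 0.29 higher (SE 0.17, adjusted p = 0.348).

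Acsl5, a long-chain acyl-CoA synthetase, read 10.76, 10.58 and 10.60 in the control forestomach and 10.46, 10.30 and 10.29 in the masses. The groups did not overlap, and the fall of 0.30 (SE 0.09, 1.23-fold lower, adjusted p = 0.0462) was the smallest that was called. It was called under 6 of 25 alternatives, and removing any 1 array other than mass 412 ended the call, at adjusted p of 0.0594 (without flox/flox esophagus 193) to 0.175 (without control forestomach 214). Against the control esophagus (10.04, 10.12 and 10.04), the control forestomach was higher by 0.58 (SE 0.09, 1.49-fold, adjusted p = 0.00208), a call that every alternative kept. Acsl4, which favours arachidonate, and Acsl6, at levels near the filter, were called in no comparison, with differences in the masses of -0.10 (SE 0.26) and 0.05 (SE 0.14).

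Uptake and binding were measured by 2 members, and neither was called in any comparison. Cd36, the fatty acid translocase, had the largest SE of all members. It read 3.96, 8.27 and 8.23 in control esophagus 216, 217 and 214, 9.32, 9.72 and 10.31 in control forestomach 214, 216 and 217 and 4.05, 9.20 and 7.62 in the masses. All masses were below all control forestomachs, but the difference of -2.83 had an SE of 1.38 (adjusted p = 0.235). In the flox/flox esophagus, animals 193, 307, 313 and 335 read 4.50, 6.68, 6.42 and 8.21. Cd36 is also made by macrophages, endothelial cells and adipocytes, and the part of such cells in its level was not tested. Fabp5, the epidermal fatty acid binding protein, read between 12.67 and 13.24 on all 13 arrays and differed by 0.07 in the masses (SE 0.12, adjusted p = 0.774).

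**Figure D4:**
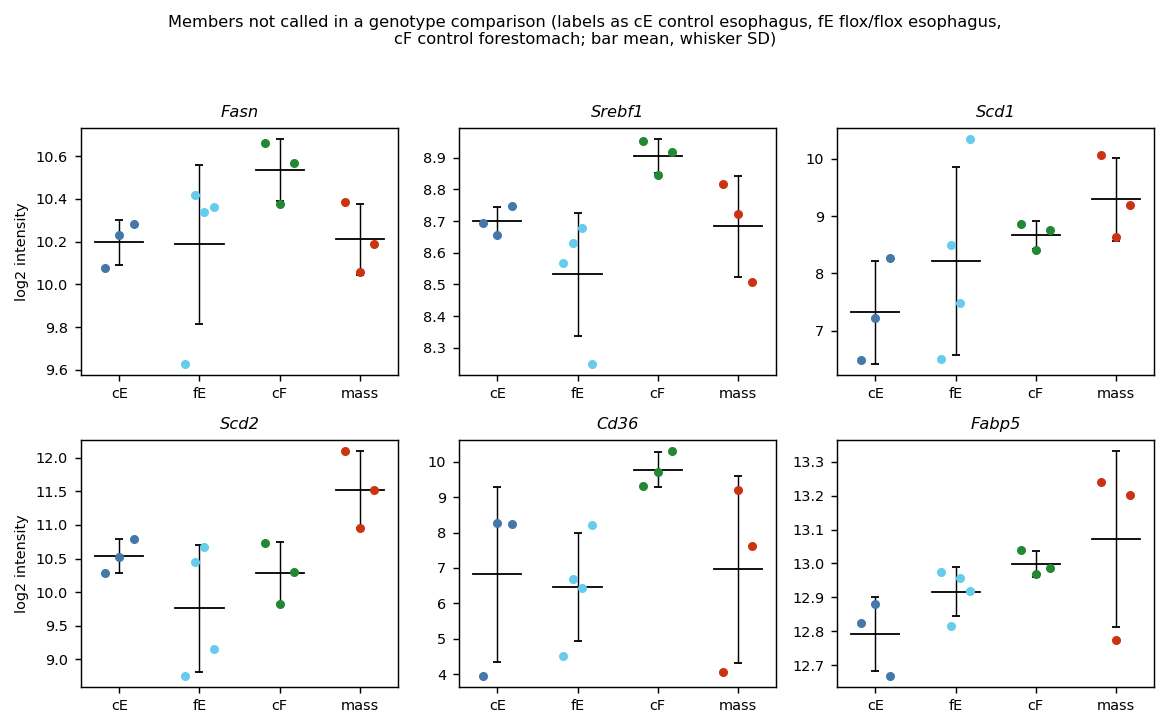
Log2 intensity per array of Fasn, Srebf1, Scd1, Scd2, Cd36 and Fabp5, none of them called in a genotype comparison (points, with bar and whisker for the mean and SD of 3 or 4 arrays; each panel has its own axis). Cd36 and Scd1 spread over several log2 units within a group, and Fasn in flox/flox esophagus 193 lies at 9.63, below the other 3 of its group.

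Glycerolipid assembly had 5 members, of which 1 rose and 3 fell in the masses, where 2.31% of all genes tested rose and 8.4% fell. Gpam, the mitochondrial acyltransferase that adds the first acyl chain to glycerol phosphate, read 8.38, 8.38 and 8.76 in the control esophagus, 10.19, 10.04 and 10.02 in the control forestomach and 7.49, 8.66 and 8.49 in the masses. The control forestomach was above every other sample, and mass 412 was the lowest of these 9 arrays. Gpam fell in the masses by 1.87 (SE 0.27, 3.66-fold lower, limma adjusted p = 0.00238), and the difference ranged from -2.09 to -1.51 with each array left out in turn. It was higher in control forestomach than in control esophagus by 1.58 (SE 0.27, 2.98-fold, adjusted p = 0.00509).

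Agpat2 and Agpat3 add the second acyl chain, and they moved in opposite directions in the masses. Agpat2 read 8.07, 8.10 and 8.24 in the control forestomach and 9.06, 8.86 and 8.78 in the masses, and rose by 0.76 (SE 0.12, 1.69-fold, adjusted p = 0.00351). Agpat3 read 10.29, 10.08 and 10.31 in the controls and 9.21, 9.58 and 9.94 in the masses, and fell by 0.65 (SE 0.17, 1.57-fold lower, adjusted p = 0.0312). For neither gene did the groups overlap. The call of Agpat2 held under each alternative. That of Agpat3 was lost without control forestomach 214, 216 or 217 (0.108, 0.0565 and 0.107), mass 412 (0.0841) or mass 426 (0.0548), with quantile normalization (0.0564), without esophagus 214, 307 and 335 (0.0553) and with only the 6 forestomach arrays (0.122).

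In the control esophagus Agpat2 read 8.39, 8.42 and 8.25 and Agpat3 9.22, 9.34 and 9.09. Agpat3 was higher in the control forestomach by 1.01 (SE 0.17, 2.01-fold, adjusted p = 0.00408), above the esophagus on all 3 arrays. Agpat2 was not called, at a difference of -0.22 (SE 0.12, adjusted p = 0.335).

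Dgat2 and Dgat1 encode the acyltransferases that make triglyceride from diacylglycerol. Dgat2 read 12.10, 12.06 and 12.06 in the control forestomach and 10.68, 11.45 and 11.53 in the masses, with no overlap, and fell by 0.86 (SE 0.20, 1.81-fold lower, adjusted p = 0.0178). Dgat1 read 7.42, 7.24 and 7.57 in the controls and 7.75, 8.21 and 7.68 in the masses, also without overlap, but its difference of 0.47 (SE 0.16, adjusted p = 0.0907) was not called. The call of Dgat2 was lost without control forestomach 214, 216 or 217 (0.064, 0.0565 and 0.0579). Against the control esophagus (11.55, 11.65 and 11.81) Dgat2 was 0.40 higher in the control forestomach (SE 0.20, adjusted p = 0.262, or 0.0413 in the paired fit).

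Mass 426 was the sample with high glandular stomach markers. Without it the differences of Fads2, Elovl7 and Agpat2 were 2.24, 1.24 and 0.78, and those of Gpam, Elovl6, Slc27a1, Fads6 and Hsd17b12 were -2.09, -1.86, -1.63, -1.24 and -0.64. Each of these 8 was called without it, as were Acaca, Dgat2 and Elovl4, whereas Acsl5, Agpat3, Elovl1, Fads1 and Slc27a4 were not (adjusted p = 0.0938, 0.0548, 0.0801, 0.0611 and 0.0502). The 6 macrophage genes averaged 7.59, 6.95 and 6.47 in masses 412, 426 and 510 against 5.93 to 6.02 in the control forestomach, and the 6 endothelial genes 7.39, 7.32 and 6.49 against 5.63 to 6.25. The 6 smooth muscle genes averaged 7.71, 9.99 and 6.49 against 7.38, 6.04 and 6.01 in control forestomach 214, 216 and 217, and the 6 proliferation genes 8.61, 7.31 and 7.70 against 7.06, 7.32 and 7.56. The 5 leukocyte genes averaged 6.32, 5.87 and 5.96 in masses 412, 426 and 510 against 5.42 to 5.58 in the control forestomach. They averaged 7.05 in flox/flox esophagus 193 and 5.20 to 6.34 in the other esophagus samples. The part of fibroblast, muscle, endothelial, immune or dividing cells in the members' differences was not tested.

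In the esophagus no member was called between flox/flox and control. The lowest limma adjusted p among the 32 was 0.461, none of the 25 alternatives gave a call, and 2 members had an unadjusted p under 0.05 (6.25%, against 6.98% of all genes tested). Over all genes 2 were called, both lower (0.0126%). The members' differences ran from -0.78 (Scd2) to 0.89 (Scd1), with a median of -0.09 against 0.01 over all genes.

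The groups did not overlap for 6 members. Agpat2 was the 1 member (3.125%) with all flox/flox samples above all controls, where 4.18% of all genes tested were. It read 8.53, 8.84, 8.48 and 8.46 in flox/flox samples 193, 307, 313 and 335, against at most 8.42 in the controls (difference 0.22, SE 0.11, adjusted p = 0.761). Fads6, Elovl1, Elovl5, Hsd17b12 and Tecr were the 5 (15.625%) with all flox/flox samples below all controls, where 6.1% of all genes were. Fads6 had the largest of these differences, with 8.45, 8.33 and 8.33 in the controls and 7.55, 7.84, 7.84 and 7.27 in the flox/flox samples (difference -0.74, SE 0.20, adjusted p = 0.461). Hsd17b12 read 10.09, 10.47, 10.45 and 10.02 in the flox/flox samples and Elovl5 9.96, 10.16, 10.06 and 9.99, with differences of -0.33 (adjusted p = 0.615) and -0.31 (0.714). Elovl1 read 12.05, 12.23, 12.33 and 11.84 and Tecr 11.37, 11.43, 11.35 and 11.31, with differences of -0.24 and -0.19.

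Several members that differed most in the masses lay close to the control in the flox/flox esophagus. Fads2 read 9.30, 9.03, 9.08 and 9.29 there (difference -0.09, SE 0.29) and Elovl7 11.31, 11.43, 11.46 and 11.20 (difference -0.09, SE 0.10). Gpam read 8.01, 8.58, 8.04 and 8.62 (difference -0.20, SE 0.26) and Slc27a1 7.98, 8.0, 7.64 and 7.84 (difference -0.02, SE 0.22). The last named gene thus differed by less than the spread of its controls. Elovl6 was uneven, at 9.39, 10.98, 10.57 and 9.97, with 1 sample above and 3 below the controls (difference -0.64, SE 0.32, adjusted p = 0.761). Of the named genes of synthesis, Fasn read 9.63, 10.42, 10.34 and 10.36 (difference -0.01, SE 0.18) and Srebf1 8.57, 8.63, 8.68 and 8.25 (difference -0.17, SE 0.11). Acaca read 9.51, 9.75, 9.86 and 9.52 (difference -0.11, SE 0.12).

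The test of the difference between both genotype comparisons asks whether a gene changed by another amount in the forestomach than in the esophagus. It called 1 member, Elovl7 (3.125%, where 0.0819% of all genes tested were called higher). Its change was 1.32 larger in the forestomach (SE 0.14, adjusted p = 0.00284). All 3 masses were above the control forestomach, while the flox/flox esophagus overlapped its controls. Without esophagus 214, 307 and 335 together, the arrays with high muscle and fibroblast markers, the adjusted p was 0.0763. Fads2 changed by 2.27 more in the forestomach (SE 0.43) but was not called, at an adjusted p of 0.0571. It was called without mass 412 (0.0139), mass 426 (0.0499) or mass 510 (0.00302). By adjusted p, Gpam (-1.67, SE 0.38, 0.101) and Slc27a1 (-1.31, SE 0.33, 0.149) came next. Cd36 had a larger difference but a wide error (-2.46, SE 1.89, 0.753). Gpam was called without mass 426 (0.042) or mass 510 (0.044) and Slc27a1 without mass 426 (0.0153). Without mass 510 the test also called Fads1 (0.00773), Elovl4 (0.0351), Agpat3 (0.0399) and Slc27a4 (0.0467). For the other members called in the masses, a change in the forestomach and none in the esophagus does not show that the tissues differed.

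Related genes outside the 36 members came from lists chosen with earlier results of these data known. Their shares are thus a description and no independent check. They included no called rise among 94 tested in the masses, where 2.31% of all genes rose, and 25 falls, where 8.4% of all genes fell. Of 20 tested genes of fatty acid oxidation and its PPAR regulators, 10 fell and 10 were not called, with a median difference of -0.78. The 4 with the smallest adjusted p were Hadhb and Hadh, enzymes of the beta-oxidation spiral, Slc25a20, the carnitine-acylcarnitine carrier of the mitochondrion, and Acadvl, the very long chain acyl-CoA dehydrogenase. They fell, with differences of -0.83 (SE 0.12, adjusted p = 0.00214), -0.98 (SE 0.15, 0.00306), -1.35 (SE 0.22, 0.0037) and -0.68 (SE 0.12, 0.0049). Hadhb read 10.62, 10.72 and 10.76 in the control forestomach and 9.68, 9.97 and 9.94 in the masses. Slc25a20 read 10.23, 10.15 and 10.22 in the controls and 8.42, 9.13 and 9.0 in the masses. Neither gene's groups overlapped. Of the 25 falls, 15, 14 and 14 were called without control forestomach 214, 216 or 217, and 18, 23 and 23 without mass 412, 426 or 510, while the oxidation genes were called in each case except Cpt2. Cpt2 had an adjusted p of 0.0669 to 0.0815 without 1 control forestomach and a difference of -0.54, in place of -0.85, without mass 412. Without mass 510 there was 1 rise, that of the acyltransferase Agpat1 (0.60, adjusted p = 0.004).

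**Figure D5:**
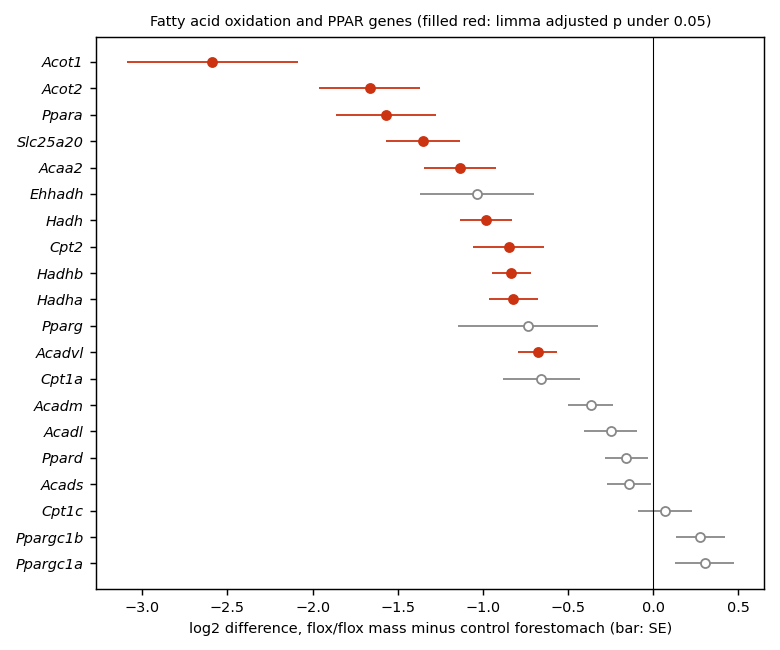
Log2 difference of 20 fatty acid oxidation and PPAR genes between the masses and control forestomach (points, with bars of 1 SE, filled where the limma adjusted p was under 0.05). The 10 called genes all lie below 0, from Acadvl at -0.68 to Acot1 at -2.59.

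Of 13 tested regulators of lipid synthesis, 3 fell in the masses, where 8.4% of all genes tested fell. Srebf2, the regulator of sterol synthesis, differed by -0.39 (SE 0.09, limma adjusted p = 0.0168). Mid1ip1, which activates acetyl-CoA carboxylase, differed by -0.71 (SE 0.17, 0.022). Insig1, which retains SREBP factors in the endoplasmic reticulum, differed by -0.60 (SE 0.17, 0.0445). Of 9 other elongation and desaturation enzymes, 3 fell: Hacd2 and Hacd3, dehydratases of the elongation cycle, at -0.64 (SE 0.13, 0.00913) and -0.50 (SE 0.14, 0.045), and Fa2h, the fatty acid 2-hydroxylase, at -2.57 (SE 0.68, 0.0331). Fa2h read 10.65, 10.72 and 10.53 in the control forestomach and 5.77, 9.05 and 9.37 in the masses, so that mass 412 was close to the control esophagus (5.0, 5.24 and 4.95). Without mass 412 its difference was -1.42 (9.16e-04), and it was not called without any 1 control forestomach (0.0871 to 0.0994). Hacd2 was called with each array left out, and Srebf2 in all cases but without control forestomach 214 or 217 (0.0721 and 0.0616). Mid1ip1 was not called without any 1 control forestomach or mass 412 (0.0625 to 0.0772), Insig1 without any 1 of the 6 arrays (0.0651 to 0.137), and Hacd3 without any 1 other than mass 426 (0.057 to 0.148). The difference of Fa2h between the control tissues was 5.57 (adjusted p = 5.45e-04).

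Of 14 other genes of uptake, binding and activation, 3 acyl-CoA synthetases fell, with differences of -1.71 for Acsf2 (SE 0.22, adjusted p = 0.00161), -2.62 for Acsm3 (SE 0.59, 0.0171) and -1.01 for Acsbg1 (SE 0.23, 0.0178). Acsm3 read 8.95, 9.09 and 9.18 in the controls and 4.68, 7.70 and 6.99 in the masses, and its difference was -1.73 without mass 412 (0.0147). Acsm3 was not called without control forestomach 214, 216 or 217 (0.0542, 0.0565 and 0.0608), nor Acsbg1 without 216 (0.067), 217 (0.0634) or mass 412 (0.0555), while Acsf2 was called in each case. Of 22 other glycerolipid and lipid droplet genes, 4 fell, where 8.4% of all genes tested did. These were Lpgat1 at -0.57 (SE 0.11, 0.00959), the lipase Pnpla2 at -0.89 (SE 0.21, 0.0198), Pnpla3 at -1.13 (SE 0.29, 0.0279) and the acyltransferase Gpat4 at -0.38 (SE 0.10, 0.0286). Of 8 genes of citrate export and NADPH supply, 2 fell, Pdk4, a kinase that inhibits pyruvate dehydrogenase, at -3.01 (SE 0.58, 0.00828) and Taldo1 at -0.63 (SE 0.15, 0.0189). Lpgat1 and Pdk4 were called with each forestomach array left out, and Pnpla3 was not called without any 1 control forestomach or mass 412 (0.0662 to 0.0917), nor Gpat4 without any 1 control forestomach or mass 426 (0.0602 to 0.117). Pnpla2 was not called without control forestomach 214 or 216 or mass 412 (0.0614 to 0.0821), nor Taldo1 without control forestomach 216 or 217 or mass 412 (0.0552 to 0.0722). None of 8 tested genes of mitochondrial fatty acid synthesis was called by limma, with differences from -0.24 to 0.11 and 1 unadjusted p under 0.05. In the esophagus no gene of these 7 lists was called.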

How the data were processed

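The deposited table holds intensity values on a linear scale, which the authors made with GCRMA, per the submitters' processing notes. Its version is not given in the sources used here. Biotin-labelled cRNA was made from Trizol-extracted RNA, per the labels' protocols. The platform annotation gave 1 gene for 21633 of 34729 probe sets, several for 1306 and no gene for 11790. Median intensity per array was 65.3 to 72.4, and precision is limited by how few arrays there are. The groups were not equally even. The median SD was 0.25 in the masses, 0.11 in control forestomach, 0.14 in control esophagus and 0.15 in flox/flox esophagus. The fit shares 1 spread per gene over all groups. Its SE can thus be too small for genes uneven in the masses and too large between the control tissues. Values under 1 were set to 1 and put on the log2 scale, and each gene took its probe set of highest mean. Acaca, Me1 and Fabp5 have more than 1 probe set. All 13 arrays were fitted with 4 group means (lmFit and eBayes, limma 3.58.1, R 4.3.3, 9 residual degrees of freedom), with Benjamini-Hochberg adjustment over 15875 genes. The fit was also run on simulated data with 1 spread per gene in all groups and no pairing by animal. Since these arrays differ in both, that run cannot show how the fit behaves here.

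The members, lists and naming rule were chosen with earlier results of these data known. The rule names each called member, Fasn, Acaca, Srebf1, Scd1 and Ctnnd1, members whose groups do not overlap, and up to 4 called genes of each related list by smallest adjusted p. Members named beyond it were chosen after their values were seen. The control tissues pair by animal: deviations from the group means correlated at 0.401, 0.398 and 0.315 for the same animal (214, 216 and 217) and at -0.425 to 0.129 for different animals. Alternatives were another filter, probe set rule, scaling, log scale, choice of arrays, weights, variance prior, animal block and arrays left out.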

Additional observations from a re-analysis of the deposited data

Results flagged for a closer look

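Fasn in flox/flox esophagus 193 read 9.63 on the log2 scale, against 10.34 to 10.42 in the other 3 samples of its group. Its gap to the nearest sample was 0.903 of the group's range, above Dixon's critical value for 4 samples, and chance flags about 1 in 20 groups. The number of genes screened in this way is not given here, so the flag cannot be weighed against that rate. The change of Elovl7 was 1.32 larger in the forestomach than in the esophagus, by the limma test of that difference (adjusted p = 0.00284, 0.000936 to 0.0763 over its alternatives), with all 3 masses above all 3 control forestomachs.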

How the results depend on the processing

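Of 2200 values under the alternatives, for 21 members named by the rule and Ctnnd1, 99 lost a call, 36 gained one and 18 changed sign, and none of those 18 was called. Causes were not tested. With each array left out in turn, members called ranged from 8 to 18 in the masses, 6 to 12 between control tissues, 1 to 7 for the difference and 0 to 0 in the esophagus; genes called ranged from 753 to 2232, 543 to 1565, 10 to 372 and 0 to 7. Members called in the masses (16) were 8 with only the arrays of the comparison and 7 without masses 412 and 426, which leaves 1 mass with its spread taken from the other groups. Members called between control tissues (11) were 6 without esophagus 214, 307 and 335 and, on the 6 control arrays alone, 16 with the replicate block and 15 without it. For the difference (1), they were 3 with the animal as a random block (correlation 0.396), 2 with array weights, with a filter at log2 above 7 or with quantile normalization, 0 without those esophagus arrays and 4 without both masses. Genes called in the masses (1700) were 1102 with array weights and 452 with only their arrays. Genes called between control tissues (1059) were 2348 with the replicate block and 2273 without it on the same 6 arrays, 2670 with the random block, 3802 with weights, 479 without the esophagus arrays and 2280 without both masses. Genes called for the difference (22) were 145 with the random block, 60 with weights, 56 with trend and robust, 101 with the filter at 7, 79 with log2(intensity + 16), 49 with quantile normalization, 5 without the esophagus arrays and 90 without both masses. Genes called in the esophagus (2) were 0 with the random block or only their arrays and 1 without the esophagus arrays. Their split for the difference was 13 higher and 9 lower, 24 and 25 with quantile normalization and 12 and 15 with median centring.

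Among those genes, the values that changed sign were as follows. Without masses 412 and 426, Elovl5 was 0.047 in the masses, and Acly and Elovl1 were 0.083 and 0.014 for the difference. Fasn in the esophagus was 0.050 with weights and 0.015 with quantile normalization, and Srebf1 for the difference was 0.014 with quantile normalization. Scd1 for the difference was 0.47 without esophagus 214, 307 and 335. With each array left out in turn, Elovl5 ranged from -0.22 to 0.14 in the masses, Fasn from -0.086 to 0.18 and Slc27a1 from -0.20 to 0.11 in the esophagus, and Scd1 from -0.84 to 0.44 and Srebf1 from -0.15 to 0.033 for the difference. A fit with only the arrays of the comparison adds nothing for the difference, which uses all groups.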
